A study of Mus musculus with 18 samples.

Results

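The interaction of LPS with IL-10 was measured by RNA-seq in bone marrow-derived macrophages (BMDMs), that is, how far the effect of IL-10 pretreatment on each gene differed between cells that later met LPS and cells that did not. It used 12 of the 18 libraries of the series, in 4 groups of 3. The groups were untreated cells given PBS, cells given IL-10 and then PBS, untreated cells given LPS, and cells given IL-10 and then LPS. IL-10 was used at 10 ng/mL for 12 hours, and LPS at 50 ng/mL or PBS was present for a further 4 hours. All cells came from Il10-/- mice on the C57BL/6J background (n = 3), so the controls lacked IL-10 of their own as well. The study's methods give adult male mice and name a vehicle for the pretreatment that preceded LPS, whereas the labels call those cells untreated. The other 6 libraries carried JQ1 at 500 nM and entered the fit and 1 comparison at the end.

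IL-10 is an anti-inflammatory cytokine. It binds a receptor made of IL-10RA and IL-10RB, whose kinases JAK1 and TYK2 phosphorylate the transcription factor STAT3, and STAT3 switches on genes such as Socs3. LPS, a component of the wall of Gram-negative bacteria, is sensed by TLR4 and switches on NF-kB, MAP kinase and interferon programmes in macrophages. Macrophages that lack IL-10 lose a brake on this response, and the design, with IL-10 added back before LPS or before PBS, allows its effect to be measured in either state.

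The libraries held 6781952 to 28289498 expected counts each over 24485 listed genes, and levels below are normalised counts, scaled between libraries by median-of-ratios size factors. The 10 macrophage markers summed to between 207789 and 262486 in each library, whereas markers of neutrophils (83.0 to 270.1), B cells (12.4 to 40.9), T and NK cells (125 to 235), dendritic cells (8.46 to 111.7), mast cells (3.38 to 36.8), endothelium (529 to 1040.2) and red cells (0 to 8.59) were low by comparison. Ly6g and Elane of the 10 neutrophil markers were at 0 in all 12 libraries. In contrast, S100a8 (11.8 to 81.1), S100a9 (24.3 to 97.9), Ngp (15.2 to 64.9) and Ltf (12.4 to 56.3) were detected in every library. Some of these sums moved with the groups. The dendritic sum was 8.46 to 20.8 without LPS, 91.0 to 111.7 with LPS and 60.8 to 84.8 with LPS + IL-10. The endothelial sum was 645 to 773 in untreated cells, 529 to 591 with IL-10, 965 to 1040.2 with LPS and 784 to 922 with LPS + IL-10. The T and NK sum was 196 to 235 with LPS and 138 to 185 with LPS + IL-10, and the fibroblast sum was 239 to 408 and 392 to 509, which overlapped. Single genes carried much of the shift with LPS. From untreated cells to LPS the means went from 4.185 to 64.3 for Xcr1 and 3.845 to 23.0 for Zbtb46 (dendritic). They went from 19.2 to 532 for Kdr but 652 to 421 for Vwf (endothelial), and from 1.491 to 96.6 for Lck but 157.5 to 121 for Cd4 (T and NK). Kdr was itself a called interaction gene (adjusted p = 0.00179). So were the macrophage markers Adgre1, at -0.29 (adjusted p = 0.00267), and Cd14, at 0.34 (adjusted p = 0.0404), whereas the other macrophage markers were not called. The part of these sums in the results was not tested. In RNA from whole cultures, fewer cells of a type and less RNA per cell cannot be told apart. Replicate 1 ran on sequencing lane 7, replicate 3 on lane 8, and replicate 2 on lane 8 if it had met LPS and lane 7 if not, so that each IL-10 library shared its lane with the matching library without IL-10. One library stood apart. Untreated replicate 1 held more interferon-type RNA than the other untreated libraries, with a summed level of 20966 against 9882 and 10662 for the type I interferon and antiviral genes. It was also the highest untreated library for other LPS-induced genes. These included Icam1 (1350 against 731 and 777), Tnf (447 against 242 and 297) and Socs3 (174 against 23.7 and 36.2), but not Ccl3 (262 against 209.7 and 275). Among the genes named by rule, the calls of Cd14, Cx3cr1, Eno1 and Nos2 were not made without this library (adjusted p = 0.163, 0.0894, 0.06 and 0.93), and that of Tnf was gained (adjusted p = 0.00377). Eif3j1 had no adjusted p in that fit. Among other list members, Il4ra, Ccl24, Tnip2 and Slamf1 were not called without it, whereas Nfil3, Ccl4, Nfkb2, Myd88, Cd40, Cd274 and Icosl were called negative and Ddit4 and Pgam1 positive.

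The IL-10 effect differed between cells with and without LPS for 804 of 10808 genes tested (7.44%, adjusted p under 0.05, DESeq2 Wald test). The interaction is the log2 effect of IL-10 during LPS minus its log2 effect without LPS. It was positive, that is, IL-10 left more RNA during LPS than its effect without LPS would give, for 432 genes (4.00%), and negative for 372 (3.44%). Its size among called genes had a median of 0.66 on the log2 scale, and exceeded 1, a doubling, for 137 positive and 64 negative genes. An unadjusted p under 0.05 was reached by 1912 genes. Positive genes were 53.7% of the calls, and 73.6% (690 of 938) when libraries were scaled by total counts instead. The sign was the same in all 3 sets of same-numbered libraries for 802 of the 804 called genes (99.8%), against 47.0% of all genes tested. The call itself rests on these libraries, so this share describes their spread. Without untreated replicate 1 the count was 748, and the edgeR quasi-likelihood test called 704, of which 677 were among the 804.

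**Figure D1:**
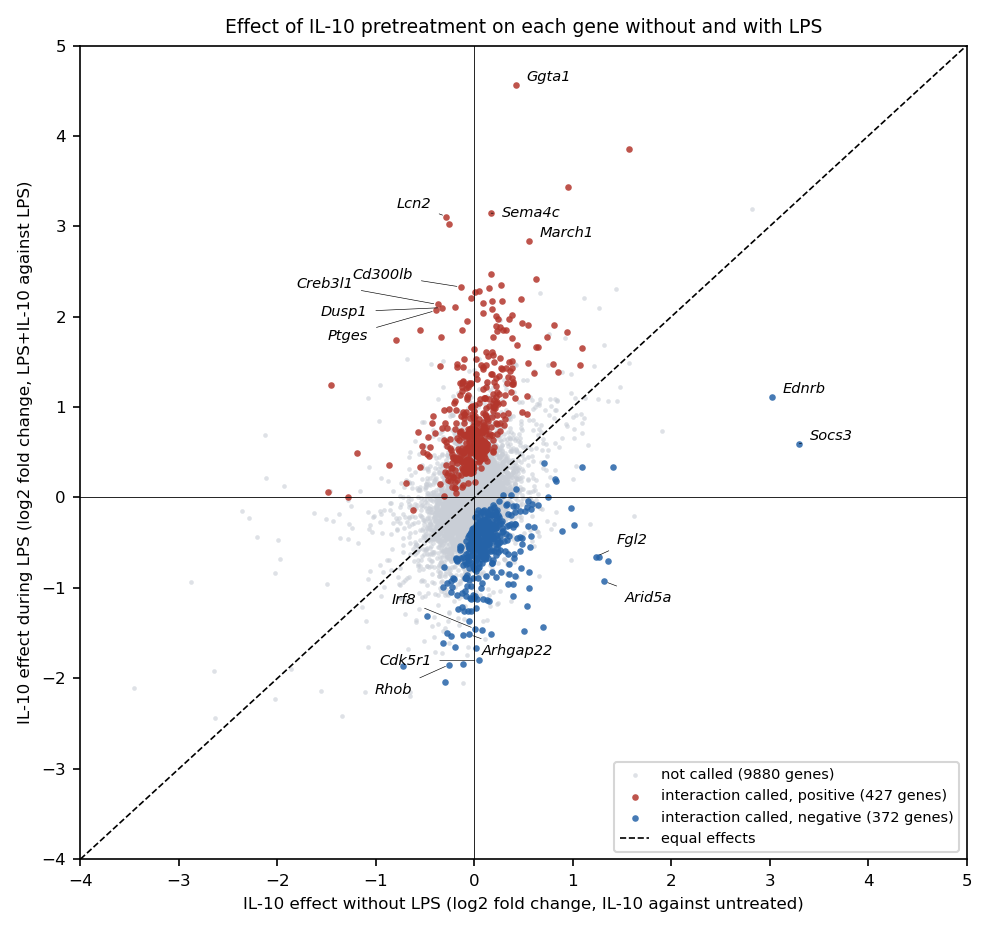
Each point is a gene, with the effect of IL-10 without LPS on the x axis and the effect of IL-10 during LPS on the y axis, both as log2 fold changes. The dashed line marks equal effects, so the vertical distance from it is the interaction; 427 positive genes are red, 372 negative genes are blue, and 129 tested genes with a group at or under 3 counts are left out. Most coloured points lie near 0 on the x axis and away from 0 on the y axis, and Socs3 and Ednrb lie farthest to the right among the coloured points.

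Most called genes had no called effect of IL-10 without LPS. IL-10 changed 358 genes without LPS (2.81% of those tested) and 1968 during LPS (17.2%, of which 8.38% higher and 8.81% lower), and 722 of the 804 interaction genes had a called effect during LPS against 92 with a called effect without LPS. Among the 432 positive genes, 371 were higher with IL-10 during LPS with no called effect without LPS, and 27 were higher in both states with a larger rise during LPS. Among the 372 negative genes, 298 were lower with IL-10 during LPS with no called effect without LPS. A further 29 were raised by IL-10 without LPS and had no called effect during LPS. An absent call does not show an absent effect, and 43 called genes had no called effect in either state.

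The knocked-out gene came first as a check of the labels. Reads assigned to Il10 were few, at 37.0, 27.1 and 33.5 normalised counts in untreated cells, 48.3, 43.0 and 49.0 with IL-10, 53.7, 61.0 and 74.9 with LPS and 134, 155 and 177 with LPS + IL-10. All 12 libraries carry the same genotype, so these counts do not compare the deletion with intact cells. The interaction of Il10 was not called, at 0.81 ± 0.32 (SE, adjusted p = 0.108). The effect of added IL-10 on Il10 reads was called during LPS, at 1.30 ± 0.21 (SE, adjusted p = 2.76e-08). Without LPS it was not called (adjusted p = 0.447).

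Of 13 genes for the IL-10 receptor, JAKs and STATs, 4 were called negative and none positive. That is 30.8% called, against 7.44% of all genes tested, with a median interaction of -0.15 against -0.004. Il10ra (chr9:45061922-45077232, minus strand, on mm9 with GENCODE gene models, as all gene positions here), the ligand-binding chain, was at 2451, 2506 and 2367 in untreated cells and at 2531, 2489.6 and 2529.7 with IL-10. It stood at 10617, 10595 and 9889.7 with LPS and at 7733, 6416 and 6652 with LPS + IL-10. All LPS libraries were thus above all libraries without LPS, and the IL-10 groups overlapped the others without LPS but not during LPS. The interaction was -0.63 ± 0.10 (SE, adjusted p = 2.6e-08). Il10rb, the shared second chain, stayed between 2533 and 3669 in all libraries with an interaction of 0.09 ± 0.07 (SE, adjusted p = 0.656). Jak1 and Tyk2, the kinases on the receptor, gave 0.16 ± 0.07 (SE, adjusted p = 0.183) and -0.28 ± 0.12 (SE, adjusted p = 0.156), and neither was called.

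Stat3 (chr11:100746412-100800854, minus strand), the main transcription factor downstream of the receptor, responded to IL-10 only in the cells without LPS by these calls. Its counts were 2102, 1647 and 1494 in untreated cells and 2972, 2994 and 2839.6 with IL-10, a rise of 1.68-fold. With LPS they were 9899.8, 9253 and 9141 without IL-10 and 10008, 9279 and 9027 with it, so the LPS groups overlapped. The interaction of -0.75 ± 0.13 (SE, adjusted p = 1.37e-06) is the test of that difference. Stat5a and Stat5b, which serve other cytokine receptors, were called negative as well, at -0.55 ± 0.13 and -0.53 ± 0.11 (SE).

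Socs3 (chr11:117827393-117831361, minus strand), the feedback inhibitor that STAT3 induces, had the most negative interaction of the genes named by size. It was at 174, 23.7 and 36.2 normalised counts in untreated cells and at 931, 703 and 691 with IL-10. LPS alone took it to 28847, 28375 and 23772, and LPS + IL-10 to 41996, 43947 and 36287. IL-10 thus multiplied the mean 9.96-fold without LPS and 1.51-fold during LPS, where the level was already 347-fold that of untreated cells, and the IL-10 and untreated libraries overlapped in neither state. The interaction was -2.71 ± 0.74 (SE, adjusted p = 0.0056), although the effect during LPS alone was not called (adjusted p = 0.534). The 3 untreated libraries spread widely, and untreated replicate 1 was the high one. Without that library the Socs3 interaction was -4.01.

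Other feedback genes moved in either direction. Of 15 SOCS, PIAS and phosphatase genes, 4 were called (26.7%, against 7.44% of all genes tested). Socs2 was low throughout, at 18.5, 13.5 and 8.04 in untreated cells, 16.9, 19.2 and 7.48 with IL-10, 56.5, 49.6 and 60.2 with LPS and 21.6, 10.6 and 24.3 with LPS + IL-10, and its interaction of -1.68 ± 0.55 (SE, adjusted p = 0.0317) was lost in 16 of 27 alternative fits. Socs7 gave -0.62 ± 0.14 (SE). Ptpn1 (chr2:167757557-167804885, plus strand), a phosphatase that removes phosphate from JAK kinases, was the positive one. It went from 3292, 2813 and 2628 to 5147, 5043 and 4960.5 without LPS and from 2382, 2321 and 1990.2 to 5949, 7053 and 5588 during LPS. Both steps were rises with no overlap, and the step was larger during LPS by 0.68 ± 0.14 (SE, adjusted p = 7.15e-05).

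Promoter sequence is shown for 3 of these genes, chosen after their values were seen, because each holds a short match to the recognition motif of a factor tied to IL-10 or LPS signalling. The sequences are those of RefSeq for GRCm38.p6, from 250 bases before to 50 bases after the RefSeq start of the gene. Each was placed on mm9 by an exact match. Capitals mark TTCNNNGAA, the STAT motif, in Socs3 (chr11:117830631-117830930, minus strand) and Irf8 (chr8:123260008-123260307, plus strand), and TGACGTCA, the cAMP response element, in Dusp1 (chr17:26645368-26645667, minus strand).
Socs3: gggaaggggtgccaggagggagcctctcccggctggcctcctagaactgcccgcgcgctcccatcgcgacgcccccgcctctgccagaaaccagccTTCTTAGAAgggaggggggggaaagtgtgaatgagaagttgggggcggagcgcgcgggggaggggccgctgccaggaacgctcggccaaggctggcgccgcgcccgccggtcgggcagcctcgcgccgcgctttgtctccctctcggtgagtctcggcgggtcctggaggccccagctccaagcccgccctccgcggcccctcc
Irf8: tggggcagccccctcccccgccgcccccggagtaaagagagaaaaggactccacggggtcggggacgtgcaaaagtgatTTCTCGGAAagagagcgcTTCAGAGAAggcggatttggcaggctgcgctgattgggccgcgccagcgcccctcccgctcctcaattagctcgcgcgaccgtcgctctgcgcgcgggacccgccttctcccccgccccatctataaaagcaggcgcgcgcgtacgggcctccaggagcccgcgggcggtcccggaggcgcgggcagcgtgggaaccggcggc
Dusp1: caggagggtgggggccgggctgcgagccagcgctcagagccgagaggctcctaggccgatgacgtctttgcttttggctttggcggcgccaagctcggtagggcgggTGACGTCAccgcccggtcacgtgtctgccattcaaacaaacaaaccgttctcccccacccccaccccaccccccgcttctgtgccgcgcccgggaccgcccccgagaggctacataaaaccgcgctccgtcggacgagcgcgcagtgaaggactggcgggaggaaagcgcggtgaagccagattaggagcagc
The Socs3 match starts 154 bases before the RefSeq start. In the GENCODE model used for gene positions, Socs3 starts farther upstream, at 117831361, so its whole window lies inside that gene model. Irf8 holds matches at 171 and 153 bases, and the Dusp1 match lies at 143 bases. Irf8 has 2 RefSeq promoters, and the one shown was taken from those that hold a match. A match describes letters in this window and is no evidence of binding. Both strands were searched for 4 motifs over all 32851 promoters. TTCNNNGAA was in 8.30% of all promoters, in 6.78% of those of genes tested, in 6.75% of those of positive genes and in 7.80% of those of negative genes. TGACGTCA was in 1.79% of all promoters, 3.14% of those of genes tested, 2.53% of those of positive genes and 2.93% of those of negative genes. The AP-1 motif TGANTCA was in 7.81% of all promoters, in 5.02% for genes tested, in 5.70% for positive genes and in 5.12% for negative genes, and the NF-kB motif, GGGA and TTCC around any 2 bases, in 1.47%, 1.49%, 2.11% and 1.46%, in the same order. Promoters were found for 350 of the 432 positive and 299 of the 372 negative genes.

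Tnf, Il6 and Il12b, whose proteins are classical targets of IL-10, gave no called interaction. Tnf was at 447, 242 and 297 in untreated cells and 248, 174 and 233 with IL-10. It was at 145049, 136379 and 129045 with LPS and at 72494, 40773 and 44546 with LPS + IL-10, so all LPS + IL-10 libraries were below all LPS libraries. Its effect of IL-10 during LPS was -1.38 ± 0.25 (SE, adjusted p = 9.96e-07), and its interaction was -0.79 ± 0.36 (SE, adjusted p = 0.215). With the replicate number as a block the Tnf interaction was called (adjusted p = 0.00205). Il6 and Il12b, which encode IL-6 and the p40 chain of IL-12, were nearly silent without LPS, at 4.63, 0 and 0.670 for Il6 and 18.5, 1.69 and 0 for Il12b in untreated cells. With IL-10 they were at 0.393, 0 and 0 and at 0 in all 3 libraries, respectively. An interaction cannot be measured where a group is at or under 3 counts. During LPS, Il6 fell from 13638, 11195 and 17655 to 5802, 2061 and 4462, a log2 effect of -1.78 ± 0.42 (SE, adjusted p = 0.000266). Il12b was at 42189, 38525 and 48725 (LPS) and 14262, 3537 and 5689 (LPS + IL-10), with no overlap, but its effect of -2.46 ± 1.00 (SE, adjusted p = 0.0723) was not called.

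In the cytokine and chemokine lists all called genes were negative. Il1rn, an IL-1 family member placed in the IL-10 effector list instead, was called positive. Of 9 tested genes of the IL-12 and IL-6 families (11 listed), Osm and Clcf1 were called, of 11 CC chemokines Ccl24, Ccl2 and Ccl3, of 9 CXC chemokines Cxcl16 and Pf4, and of 2 colony stimulating factors Csf1. Those shares were 22.2%, 27.3%, 22.2% and 50.0%, against 7.44% of all genes tested. Cxcl16 and Clcf1 were not called by edgeR, and the Cxcl16 call was lost in 15 of 27 alternative fits. Csf1 (chr3:107543966-107563387, minus strand), the growth factor of macrophages, was at 113, 59.2 and 66.4 in untreated cells and 86.4, 66.1 and 56.5 with IL-10. LPS took it to 16020.4, 14585 and 12366, and LPS + IL-10 to 7021, 3256 and 3390.1, and the interaction was -1.45 ± 0.46 (SE, adjusted p = 0.0234). The Csf1 call was lost in 10 of 27 alternative fits, among them the 12 libraries alone. Ccl2 (chr11:81849073-81850955, plus strand), which draws monocytes, was at 34.7, 15.2 and 20.1 (untreated) and 13.0, 19.2 and 28.2 (IL-10) without LPS and went from 8988, 9281 and 12871 to 3657, 1573 and 2349.6 during LPS. Its interaction was -1.75 ± 0.52 (SE, adjusted p = 0.0139), but its values in the 3 sets were 0.06, -2.88 and -2.92 and edgeR did not call it (adjusted p = 0.104). Ccl3 (chr11:83461346-83462857, minus strand), an inflammatory chemokine, was at 262, 209.7 and 275 (untreated) and 259, 220.5 and 247 (IL-10) without LPS. It reached 145542, 131688 and 134654 with LPS and 90019, 62074 and 65989.8 with LPS + IL-10, an interaction of -0.86 ± 0.20 (SE, adjusted p = 0.000444). Osm, a cytokine of the IL-6 family, gave -1.15 ± 0.31 (SE, adjusted p = 0.00407), and its LPS groups of 259, 280.2 and 295 (LPS) and 170.5, 106 and 75.7 (LPS + IL-10) did not overlap. Of 12 tested TNF and IL-1 family ligands none was called by DESeq2 or edgeR, while 4 had an unadjusted p under 0.05. At 7.44% called over all genes tested, a list of this length would hold few calls. Without untreated replicate 1, Tnf and Il1b were called negative in that list.

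The remaining large negative interactions covered RNA binding, small GTPases, coagulation and transcription. Arid5a (chr1:36364578-36380874, plus strand), an RNA-binding protein that stabilises Il6 mRNA, changed direction. It rose from 209.8, 159 and 140.1 to 422, 417 and 432 with IL-10 in cells without LPS and fell from 3513, 3692 and 3186 to 2276, 1592 and 1605 during LPS. The groups did not overlap in either state, both effects were called, and the interaction was -2.24 ± 0.21 (SE, adjusted p = 9.22e-25). Ednrb (chr14:104213842-104243390, minus strand), an endothelin receptor, rose in both states. Its counts went from 78.7, 18.6 and 28.8 to 456, 273 and 339 without LPS and from 235, 261 and 325 to 543, 593 and 641 during LPS, which is 8.47-fold against 2.16-fold, with an interaction of -1.91 ± 0.42 (SE, adjusted p = 0.000251), and -2.71 without untreated replicate 1.

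Irf8 (chr8:123260258-123280594, plus strand), a transcription factor of macrophage activation, was at 2403, 2753 and 2466 in untreated cells and 2380.3, 2738 and 2547 with IL-10, which overlapped. LPS raised it to 18417, 19337 and 18685 and LPS + IL-10 to 9619, 5416 and 5572. Every LPS + IL-10 library was below every LPS library, and replicate 1 was the least affected. The interaction was -1.46 ± 0.23 (SE, adjusted p = 1.54e-08). Rhob (chr12:8504569-8506791, minus strand), a small GTPase of the actin cytoskeleton, was at 2148, 2159.8 and 2107 (untreated) and 1776, 1881 and 1721 (IL-10) without LPS. During LPS it was at 12209, 12385 and 10064 without IL-10 and at 5233, 2263 and 2125 with it, and the interaction was -1.59 ± 0.39 (SE, adjusted p = 0.00111). Arhgap22 (chr14:34027212-34183122, plus strand), which switches off Rac, went from 1773, 1554 and 1292 to 812, 388 and 419 during LPS, below its levels of 1046, 1272 and 1174 in untreated cells, with an interaction of -1.46 ± 0.28 (SE, adjusted p = 1.43e-05).

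Cdk5r1 (chr11:80290548-80294681, plus strand), the activator p35 of the kinase CDK5, was low in all groups. It was at 75.6, 91.3 and 61.0 in untreated cells, 73.8, 73.0 and 83.1 with IL-10, 198, 184 and 211 with LPS and 83.9, 38.0 and 48.7 with LPS + IL-10. All LPS + IL-10 libraries were below all LPS libraries, and the interaction was -1.85 ± 0.28 (SE, adjusted p = 4.88e-09). Fgl2 (chr5:20878460-20884192, plus strand), a prothrombinase of the fibrinogen family, was at 244, 74.4 and 72.4 (untreated) and 381, 242 and 301 (IL-10) without LPS and at 7496, 5802 and 8005 (LPS) and 5210.1, 3223 and 5102 (LPS + IL-10) during LPS. Neither single effect was called. Untreated replicate 1 reached into the range of the IL-10 libraries, whereas the LPS groups did not overlap. The Fgl2 interaction of -1.89 ± 0.61 (SE, adjusted p = 0.0323) was -2.73 without untreated replicate 1, and the call was lost in 10 of 27 alternative fits.

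Of 12 tested T cell costimulatory and checkpoint ligands Cd83 and Vsir were called negative and Slamf1 positive (25.0%, against 7.44% of all genes tested). Slamf1, a self-binding receptor of immune cells, was at or under 3 normalised counts in every library without LPS, at 35.4, 43.4 and 55.2 with LPS and at 191, 178 and 227 with LPS + IL-10, and edgeR did not call it. Cd83 (chr13:43880476-43898499, plus strand), a maturation marker, was at 598, 528 and 617 (untreated) and 551, 477 and 582 (IL-10) without LPS and fell from 10738, 10345 and 11542 to 5065, 2614 and 3727 during LPS, an interaction of -1.40 ± 0.26 (SE, adjusted p = 3.59e-06). Vsir, the checkpoint ligand VISTA, went from 6869.5, 8328 and 7664 to 7909, 8856 and 8476 without LPS and from 2584, 2413 and 2502 to 1900.0, 1674 and 1733 during LPS. Its interaction was -0.64 ± 0.12 (SE, adjusted p = 1.67e-06), and both LPS groups were below both others. Ciita, the master activator of MHC class II genes, was the 1 called of 7 tested MHC class II genes, at -1.34 ± 0.33 (SE, adjusted p = 0.00121), from 129, 121 and 117 to 79.8, 51.7 and 57.7 during LPS. Of 12 tested adhesion and endothelin genes Ednrb, Icam1 and Itga4 were called. The MHC class II list thus had 14.3% called and the adhesion list 25.0%, against 7.44% of all genes tested. Icam1, a ligand of leukocyte integrins, gave -0.90 ± 0.26 (SE, adjusted p = 0.0114) and Itga4, an integrin chain, -0.75 ± 0.20 (SE, adjusted p = 0.00488). The Icam1 call was lost in 11 of 27 alternative fits.

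**Figure D2:**
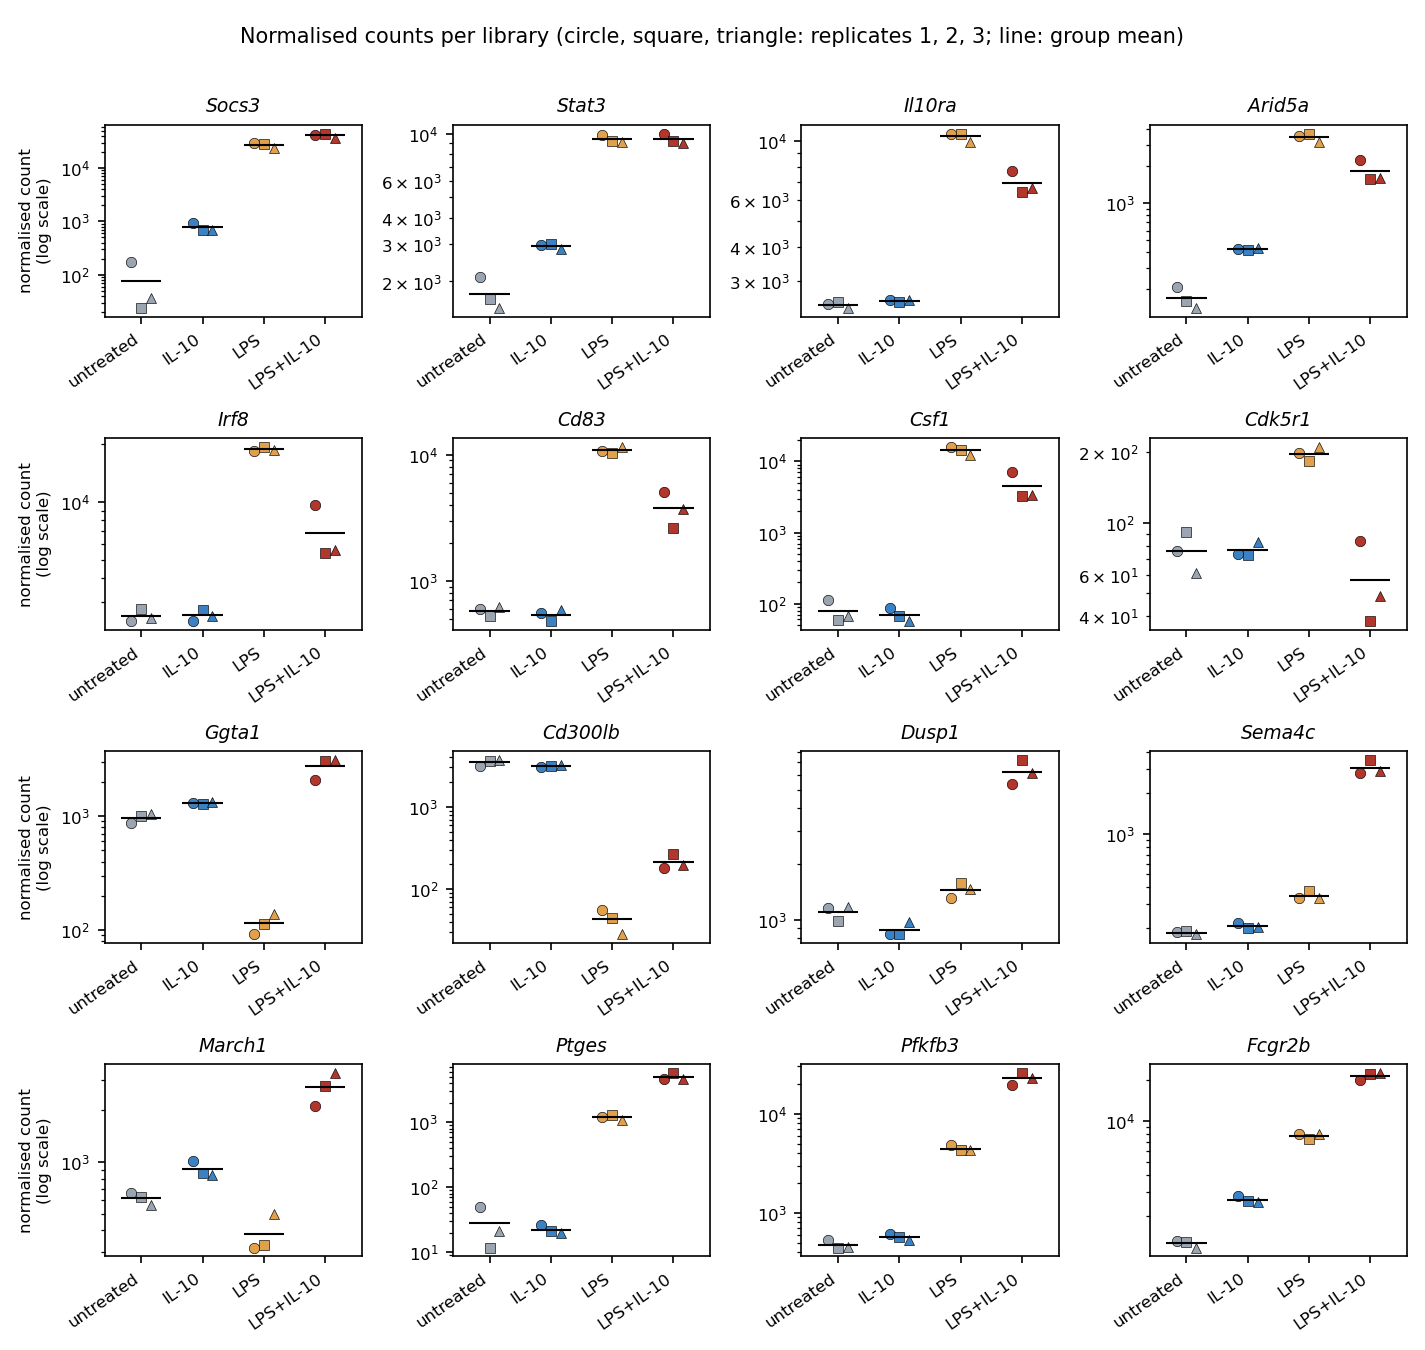
Normalised counts (log axis) of 16 genes in the 12 libraries, with 1 point per library, its shape giving the replicate, and a line at each group mean (n = 3). For Socs3, Stat3 and Arid5a the IL-10 libraries lie above the untreated ones without LPS, for Irf8, Cd83, Csf1 and Cdk5r1 the LPS + IL-10 libraries lie below the LPS ones, and for Ggta1 and Cd300lb the LPS libraries are the lowest of all.

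The largest positive interaction was that of Ggta1 (chr2:35255699-35318751, minus strand), the enzyme that adds alpha-galactose to surface glycans. It was at 867, 998 and 1049 in untreated cells and at 1304, 1286 and 1316 with IL-10. LPS lowered it to 91.9, 113 and 140.0, whereas LPS + IL-10 cells held 2056, 3020.4 and 3101. The mean fell 8.46-fold with LPS alone and rose 2.09-fold with LPS in cells given IL-10, and the interaction was 4.14 ± 0.23 (SE, adjusted p = 3.18e-71). Cd300lb (chr11:114784095-114795700, minus strand), an activating receptor of myeloid cells, was also lowered by LPS, from 3099, 3558 and 3700.2 to 56.5, 44.5 and 28.2. IL-10 left it at 3020.3, 3166 and 3246 without LPS and at 181, 269 and 198 during LPS, so the fall was smaller in cells given IL-10 but was not undone. Its interaction was 2.46 ± 0.21 (SE, adjusted p = 8.28e-29).

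March1 (chr8:68141799-68995536, plus strand), a ubiquitin ligase that removes MHC class II and CD86 from the surface, rose with IL-10 in both states. It was at 663, 624 and 558 in untreated cells, 1009.5, 858 and 845 with IL-10, 318, 329 and 499.7 with LPS and 2106, 2777 and 3279 with LPS + IL-10. The LPS libraries were the lowest and the LPS + IL-10 libraries the highest, and the interaction was 2.27 ± 0.25 (SE, adjusted p = 1.37e-17).

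Sema4c (chr1:36605487-36615194, minus strand), a membrane semaphorin, was nearly level without LPS, at 186, 191 and 179.6 (untreated) and 217, 201 and 205 (IL-10). It was at 332, 375 and 333 with LPS and at 2799, 3513 and 2913 with LPS + IL-10, an interaction of 2.97 ± 0.17 (SE, adjusted p = 1.97e-61). Creb3l1 (chr2:91822485-91864659, minus strand), a membrane-bound transcription factor, was at 57.1, 74.4 and 78.4 (untreated) and 42.0, 63.8 and 58.1 (IL-10) without LPS. During LPS it went from 123, 131 and 77.3 to 471, 587 and 404, an interaction of 2.51 ± 0.34 (SE, adjusted p = 3.3e-11). Lcn2 (chr2:32240153-32243317, minus strand), which binds bacterial iron carriers, was low without LPS, at 13.1, 11.8 and 25.5 (untreated) and 21.2, 5.38 and 14.9 (IL-10). It was at 196, 100.3 and 146 with LPS and at 1191, 1511 and 1106 with LPS + IL-10, and the interaction was 3.39 ± 0.59 (SE, adjusted p = 6.85e-07). Lcn2 is also a granulocyte gene, and the 10 neutrophil markers summed to 159 to 214 with LPS and 144 to 265 with LPS + IL-10.

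Ptges (chr2:30744991-30785383, minus strand), the synthase of prostaglandin E2 from its precursor, rose with LPS in both cases. Its counts were 50.1, 11.8 and 21.4 in untreated cells, 25.9, 21.5 and 19.9 with IL-10, 1200.4, 1291 and 1072 with LPS and 4589, 5723 and 4651 with LPS + IL-10. All LPS + IL-10 libraries were above all LPS libraries, and the interaction was 2.46 ± 0.32 (SE, adjusted p = 3.64e-12), and 1.74 without untreated replicate 1. Ptgs2, the inducible cyclooxygenase from the same list, was not called, at 0.92 ± 0.93 (SE, adjusted p = 0.753).

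Dusp1 (chr17:26642535-26645464, minus strand), the phosphatase that inactivates p38 and JNK, was at 1151, 978 and 1169 in untreated cells and 831, 833 and 966 with IL-10. It was at 1311, 1569.6 and 1468 with LPS and 5329, 7222 and 6108 with LPS + IL-10, where every library was over 3 times every LPS library. The interaction was 2.43 ± 0.20 (SE, adjusted p = 1.76e-31), close to equal in the 3 sets (2.49, 2.43 and 2.33).

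**Figure D3:**
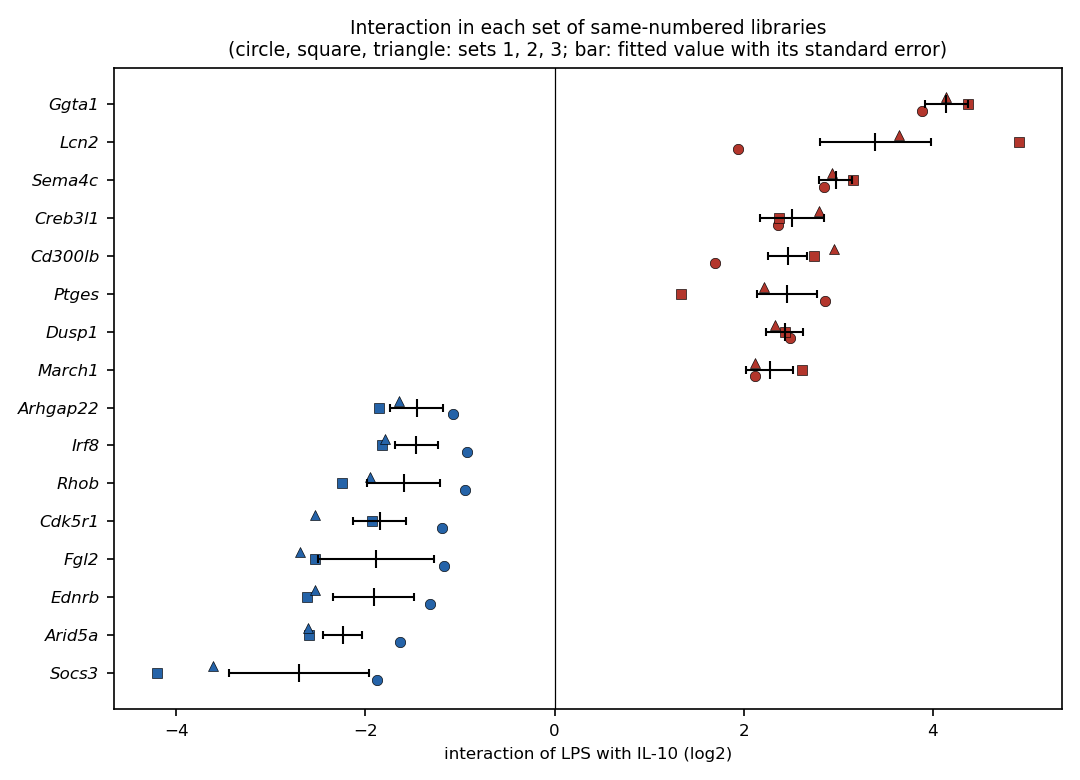
Interaction (log2) of the 8 largest negative (blue) and 8 largest positive (red) named genes in each of the 3 sets of same-numbered libraries, computed as log2(normalised count + 1), with the fitted DESeq2 value and its standard error as a black bar. All 48 points are on the side of the fitted value, and set 1 (circles) is closest to 0 for all 8 negative genes.

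The sets differed in size. Among the 372 negative genes the median interaction was -0.51 in set 1, -0.69 in set 2 and -0.62 in set 3, and set 1 was closest to 0 for 241 of them. Among the 432 positive genes the medians were 0.65, 0.82 and 0.68, and set 1 was closest to 0 for 235. Without LPS + IL-10 replicate 1 the count of calls was 884.

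Among known effectors of IL-10 most called genes were positive. Of 19 tested IL-10 effector genes (20 listed), 9 were positive and 1, Arid5a, was negative, with a median of 0.54. That is 52.6% called, against 7.44% of all genes tested. The effector list was written with earlier results of these samples known. Il1rn, the natural antagonist of the IL-1 receptor, gave 1.29 ± 0.22 (SE, adjusted p = 2.44e-07), at 209, 152 and 166 (untreated) and 180.2, 167 and 174 (IL-10) without LPS and at 7724, 8446 and 9909 (LPS) and 16639, 21704 and 24234 (LPS + IL-10) during LPS. Tnip3 (chr6:65540392-65584034, plus strand), of the family of A20-interacting proteins, was at 730.5, 555 and 617 (untreated) and 528, 447 and 524 (IL-10) without LPS. It rose from 3501, 3234 and 5159 to 8377, 10191 and 13997 during LPS, an interaction of 1.80 ± 0.27 (SE, adjusted p = 4.28e-09). Il21r, Cebpb, Bcl6, Tnfrsf1b, Il4ra and Etv3 gave 1.79, 1.16, 0.99, 0.60, 0.55 and 0.47. Bcl3, Nfil3 and Sbno2, which STAT3 also induces, were not called, at -0.25 ± 0.25 (SE, adjusted p = 0.753), -0.38 ± 0.21 (SE, adjusted p = 0.357) and 0.32 ± 0.16 (SE, adjusted p = 0.29).

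Of 19 NF-kB subunits and feedback inhibitors 4 were positive and 3 negative (36.8% called, against 7.44% of all genes tested). The positive ones were Tnip1 (0.80), Tnip2 (0.55), Tnip3 and Irak3, and the negative ones were the subunits Rel (-0.71) and Nfkb1 (-0.36) and the co-factor Nfkbiz. Of these, edgeR did not call Nfkb1. Irak3, which blocks signalling from the Toll-like receptors, was at 461, 468 and 386 (untreated) and 575, 446 and 512 (IL-10) without LPS. It rose from 1947, 1932 and 1650.1 to 3577, 4135 and 3763 during LPS, an interaction of 0.82 ± 0.17 (SE, adjusted p = 7.96e-05). Nfkbiz, needed for a subset of NF-kB targets, had an interaction of -0.86 ± 0.25 (SE, adjusted p = 0.0125) with neither single effect called, and it was lost in 10 of 27 alternative fits. Nfkbia and Tnfaip3, the inhibitors IkBa and A20, were not called, at 0.03 ± 0.16 (SE, adjusted p = 0.973) and 0.22 ± 0.17 (SE, adjusted p = 0.634).

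MAP kinase phosphatases were called in 5 of 10 tested (50.0%, against 7.44% of all genes tested). Besides Dusp1, Dusp16, at 1.10 ± 0.17 (SE, adjusted p = 1.22e-08), Dusp6 and Dusp7 were positive, at 1.03 and 1.01. Dusp10 was negative, at -1.55 ± 0.39 (SE, adjusted p = 0.0016), at 25.5, 27.1 and 34.2 (untreated) and 37.7, 45.3 and 47.4 (IL-10) without LPS and at 60.8, 42.4 and 49.1 (LPS) and 17.6, 30.4 and 27.1 (LPS + IL-10) during LPS. Of 14 tested AP-1, ATF and EGR factors (18 listed) 4 were positive and none negative (28.6% called). Fos, a subunit of AP-1, was lowered by LPS, from 2572, 1806 and 1876 to 486, 508 and 404, and stood at 1599, 1594 and 1549 with IL-10 and at 698, 967 and 636 with LPS + IL-10. Its interaction was 1.11 ± 0.22 (SE, adjusted p = 2.32e-05). Fosl2, Jun and Egr1 gave 0.77, 0.62 and 0.63.

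Of 26 tested cytokine and chemokine receptors, 7 were called positive and 1 negative (30.8%, against 7.44% of all genes tested). The list had a median interaction of 0.04, and 14 of its 26 tested members were above 0. Csf3r, the receptor of G-CSF, gave 1.28 ± 0.17 (SE, adjusted p = 2.93e-12), at 1132, 1321 and 1060.5 (untreated) and 1507, 1350.1 and 1341 (IL-10) without LPS and at 973, 1123 and 942 (LPS) and 2704, 3391 and 2797 (LPS + IL-10) during LPS. Il6ra, the IL-6 receptor, was lowered by LPS from 1438, 1551 and 1361 to 169.7, 168 and 147 and held 296, 433 and 306 with LPS + IL-10, an interaction of 0.88 ± 0.18 (SE, adjusted p = 5.38e-05). Cx3cr1, the fractalkine receptor, gave 0.93 ± 0.29 (SE, adjusted p = 0.024), with neither single effect called and the call lost in 12 of 27 alternative fits. Among 19 tested Toll-like receptors and adaptors Tlr9, at -0.76 ± 0.14 (SE, adjusted p = 8.43e-06) and Tlr1, at -0.70 ± 0.21 (SE, adjusted p = 0.0163) were negative and Cd14 was positive, at 0.34 ± 0.12 (SE, adjusted p = 0.0404). That list had 15.8% called, against 7.44% of all genes tested, and the Tlr1 call was lost in 12 of 27 alternative fits. The Cd14 call was lost in 17 of 27 alternative fits, among them those with the replicate number as a block (adjusted p = 0.0532) and with edgeR (adjusted p = 0.116).

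Of 6 Fc gamma receptor genes, Fcgr3 and the inhibitory receptor Fcgr2b were positive (33.3%, against 7.44% called of all genes tested). Fcgr2b (chr1:172890689-172906678, minus strand) rose with IL-10 in both states, from 1314, 1285 and 1173 to 2808, 2572 and 2521 without LPS and from 8011, 7389 and 8087 to 20035, 22192 and 22599.8 during LPS. Those are 2.09-fold and 2.76-fold, and the difference between them was called, at 0.40 ± 0.10 (SE, adjusted p = 0.00222). Fcgr3 gave 0.87 ± 0.15 (SE, adjusted p = 4.36e-07). Near-identical Fc receptor genes can share reads, so these counts are uncertain. Msr1, a scavenger receptor, was the 1 called of 15 scavenger and efferocytosis receptors, at 0.78 ± 0.19 (SE, adjusted p = 0.00138). This share of 6.67% is near the 7.44% of all genes tested.

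In the glycolysis and cholesterol synthesis lists all called genes were positive. They were 3 of 17 glycolysis genes (17.6%) and 3 of 19 cholesterol synthesis genes (15.8%). Over all genes tested 7.44% were called in either direction and 4.00% were positive. The glycolysis genes were led by Pfkfb3 (chr2:11393057-11423728, minus strand), which makes the activator of phosphofructokinase. It was at 531, 446 and 449 (untreated) and 612, 572 and 537 (IL-10) without LPS and rose from 4790.1, 4291 and 4256 to 19667, 25667 and 22705 during LPS, an interaction of 2.08 ± 0.15 (SE, adjusted p = 1.38e-42). Slc2a1, the glucose transporter GLUT1, gave 0.61 ± 0.16 (SE, adjusted p = 0.00303). Eno1, an enolase, gave 0.42 ± 0.14 (SE, adjusted p = 0.0494), close to the threshold and lost in 19 of 27 alternative fits. The cholesterol synthesis genes were Fdft1, Lss and Sqle, at 0.95 ± 0.23 (SE, adjusted p = 0.00136), 0.81 ± 0.20 (SE, adjusted p = 0.00121) and 0.80 ± 0.18 (SE, adjusted p = 0.000573). These encode successive enzymes from farnesyl diphosphate to lanosterol. The list had a median interaction of 0.27 and 14 of its 19 members were above 0.

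**Figure D4:**
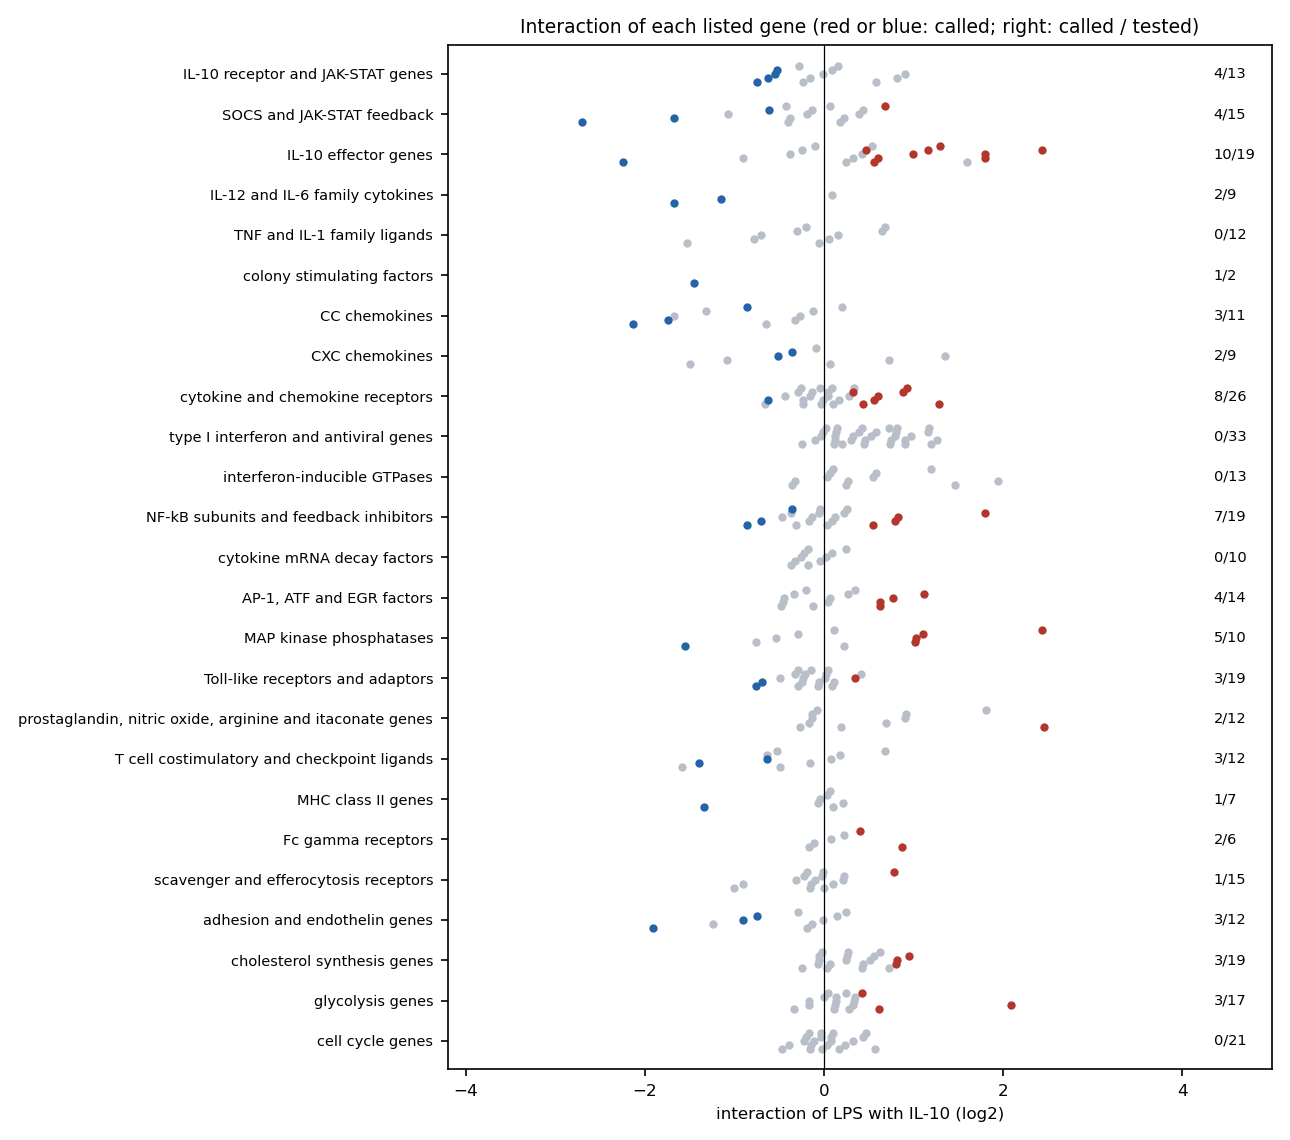
Interaction (log2, x axis) of each tested member of 25 gene lists (y axis), with called positive members in red, called negative members in blue and others in grey, and called over tested members at the right. Members with a group at or under 3 counts are not drawn but are counted at the right. Red points are most numerous in the IL-10 effector and receptor lists, the chemokine lists hold blue points and no red ones, and the interferon lists hold no called point.

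Neither list of interferon-induced genes held a called interaction, where 7.44% of all genes tested were called. None of 33 tested type I interferon and antiviral genes (34 listed) was called by DESeq2, against 5 at an unadjusted p under 0.05 and 1, Usp18, by edgeR. None of 13 tested interferon-inducible GTPases (17 listed) was called by either tool or reached an unadjusted p under 0.05. The medians were 0.44 and 0.25. Outside these lists, Oas1b and Ifitm2, named after their values were seen, were called positive, as were the interferon receptor chains Ifnar1, Ifnar2 and Ifngr2. The medians of both lists moved with untreated replicate 1. Without it the medians were -0.06 and -0.57, and Zbp1 of the first list and Gbp2, Gbp3, Gbp5, Gbp7 and Gbp9 of the second were called negative. The summed GTPase level was 7283 in untreated replicate 1 against 2578 and 3526 in the others, 2764 to 3710 with IL-10, 282774 to 319716 with LPS and 225344 to 267575 with LPS + IL-10. No call was made among 21 tested cell cycle genes (1 at an unadjusted p under 0.05, none by edgeR) or among 10 cytokine mRNA decay factors (3 at an unadjusted p under 0.05, none by edgeR). At 7.44% called over all genes tested, lists of this length would hold few calls.

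IL-10 had called effects of opposite sign in the 2 states for 20 genes. In 14 it raised the gene without LPS and lowered it during LPS, and besides Arid5a these included Bmp2k, Pim1 and Tmem173, named after their values were seen. Bmp2k, a kinase, had a mean of 1975 ± 88.8 in untreated cells and 2918 ± 153 with IL-10, 2000.0 ± 159 with LPS and 1372 ± 9.06 with LPS + IL-10 (SD, n = 3), an interaction of -1.11 ± 0.10 (SE, adjusted p = 2.05e-27). Pim1, a STAT-induced kinase, went from 363 ± 89.1 to 506 ± 12.6 and from 20805 ± 926 to 15418 ± 1337 (SD, n = 3), an interaction of -0.89 ± 0.16 (SE, adjusted p = 2.15e-06). Tmem173, which encodes the DNA sensor STING, went from 428 ± 47.9 to 566 ± 30.1 and from 368 ± 32.2 to 238 ± 18.8 (SD, n = 3), an interaction of -1.03 ± 0.16 (SE, adjusted p = 5.15e-08).

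In the other 6, Bsn, Dusp6, Ergic1, Kif3c, Plekhm3 and Vegfa, IL-10 lowered the gene without LPS and raised it during LPS. Vegfa, the vascular growth factor, was at 809, 744 and 730.0 in untreated cells and 550.5, 547 and 555 with IL-10, and at 110.3, 108 and 78.6 with LPS and 168, 172 and 136 with LPS + IL-10. Its effect of IL-10 was -0.47 ± 0.11 (SE, adjusted p = 0.00103) without LPS and 0.67 ± 0.15 (SE, adjusted p = 0.000198) during LPS, and the interaction was called (adjusted p = 1.34e-07). Dusp6, a phosphatase of ERK, gave 1.03 ± 0.18 (SE, adjusted p = 2.07e-06). In only 3 called negative genes, Apbb2, Rasgef1b and Rgs1, IL-10 lowered the gene in both states and more so during LPS. Rgs1, a regulator of G protein signalling, fell from 574, 565 and 719 to 358, 365 and 401 without LPS and from 2338, 2472 and 3568 to 982, 483 and 829.5 during LPS, an interaction of -1.14 ± 0.28 (SE, adjusted p = 0.00179). The called negative genes with a called rise in both states, smaller during LPS, were Ednrb, Ap1b1 and Gcnt2. Apart from Ednrb, the genes named here were named after their values were seen.

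Some called interactions cannot be given as a size. In 24 of the 804 genes a group had a mean under 10, and in 5 a group was at or under 3 counts in every library. Of these 5, the 3 with the lowest adjusted p are given by levels only. Serpinb2, a protease inhibitor, was at 2.31, 1.69 and 5.36 in untreated cells and 1.18, 0.768 and 0 with IL-10, and at 156, 152 and 201 with LPS and 318, 351 and 394 with LPS + IL-10. Nos2, the inducible nitric oxide synthase, was at 6.94, 0 and 0 (untreated) and 0, 0 and 0 (IL-10) without LPS and at 15493, 15956 and 14663 (LPS) and 16363, 18223 and 14798 (LPS + IL-10) during LPS, so untreated replicate 1 was the only library above 0 without LPS. Eif3j1, a near copy of another gene with which it can share reads, was at 257, 0 and 286 in untreated cells and between 0 and 1.80 in every other library. The calls of Nos2 and Eif3j1 were lost with the replicate number as a block (adjusted p = 0.0629 and 0.574).

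JQ1, a small molecule that blocks the acetyl-lysine pockets of BET proteins, was given on the same schedule, and its interaction with LPS shares the 6 libraries without pretreatment. That interaction was called for 5279 of 12727 genes (41.5%). The direct test of the difference, in which those libraries cancel, was called for 4886 of 12727 genes (38.4%, of which 22.5% higher and 15.9% lower with IL-10). Among the 432 positive IL-10 genes it was called higher with IL-10 for 279 and lower for 57, and among the 372 negative genes higher for 141 and lower for 99. Both tests use the same IL-10 libraries, so picking genes as positive favours higher in the difference, and picking them as negative favours lower. The counts describe these genes and are not independent of that choice. These directions depend on the scaling, since genes higher with IL-10 were 58.6% of the called differences with size factors and 17.8% with total counts, and the named differences were computed with size factors alone. Arid5a gave -2.24 with IL-10 and -2.28 with JQ1, a difference of 0.04 ± 0.20 (SE, adjusted p = 0.9). Irf8 gave -1.46 and -1.31, a difference of -0.15 ± 0.23 (SE, adjusted p = 0.634). A missed threshold does not show that the treatments act alike. Socs3 differed, with -2.71 against 0.32 (adjusted p of the difference = 0.000246). Ptges, Pfkfb3 and March1 had interactions of opposite sign, at 2.46 against -2.51, 2.08 against -2.73 and 2.27 against -2.30 (adjusted p of the difference = 3.3e-24, 7.33e-228 and 1.1e-35). Fcgr2b gave 0.40 with IL-10 and -3.18 with JQ1 (adjusted p of the difference = 7.3e-208).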

How the data were processed

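RNA from the cultured macrophages was depleted of ribosomal RNA, prepared with a stranded kit and sequenced from both ends. The authors cleaned reads with TagDust, aligned them to mm9 with STAR and deposited, per gene and library, expected counts from RSEM 1.2.31, together with TPM and FPKM values (not used here for the main tests). Per the labels the cultures were biologically matched between groups, so equal replicate numbers were taken to mark the same mouse. Deviations of same-numbered libraries correlated at -0.064 to 0.463 over 18 pairings, 11 of them above 0.1, across 11445 genes.

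Expected counts were rounded and fitted with DESeq2 1.42.0 (R 4.3.3), with group as the only term over all 18 libraries, since the groups then share 1 estimate of the spread. The interaction was tested as a contrast of the 4 groups, with Benjamini-Hochberg adjustment over all genes tested and a threshold of 0.05. Scripts were tested on simulated data. Counts of 3 or fewer were treated as a floor. The genes named are the 8 largest called interactions in each direction with a mean of at least 100 over the 12 libraries, at least 10 in each group and 1 sign in all 3 sets, up to 3 called members of each list, the receptor pathway and cytokine genes, and the 3 called genes of lowest adjusted p with a group at or under 3 counts. Other genes were named after their values were seen. The lists and the members were chosen with earlier results of these data known. Alternatives were edgeR 4.0.16 with its quasi-likelihood test, limma 3.58.1 on log2(TPM + 1), other scalings and filters, the 12 libraries alone, the replicate number or the lane as terms, and leaving out libraries. Strand was not used in counting, so overlapping antisense genes cannot be told apart.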

Additional observations from a re-analysis of the deposited data

Results flagged for a closer look

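The effect of IL-10 with and without LPS differed by the DESeq2 interaction test for 804 genes, and each gene below is one of them, listed with its log2 interaction because the test of that difference passed its threshold. Among ligands, receptors and adhesion genes the values were -1.75 for Ccl2, -0.86 for Ccl3, -0.52 for Cxcl16, -0.36 for Pf4, -1.45 for Csf1, -1.15 for Osm, -0.90 for Icam1, -0.75 for Itga4, -1.91 for Ednrb, -0.63 for Il10ra, 0.88 for Il6ra, 1.28 for Csf3r and 0.93 for Cx3cr1. Among surface molecules and sensors they were -1.40 for Cd83, -0.64 for Vsir, 2.46 for Cd300lb, 0.40 for Fcgr2b, 0.87 for Fcgr3, 0.78 for Msr1, 0.34 for Cd14, -0.70 for Tlr1, -0.76 for Tlr9 and 2.97 for Sema4c. Among signalling genes they were -1.68 for Socs2, -2.71 for Socs3, -0.75 for Stat3, -0.55 for Stat5a, 0.68 for Ptpn1, 2.43 for Dusp1, -1.55 for Dusp10, 1.10 for Dusp16, 0.82 for Irak3, 1.80 for Tnip3, -0.86 for Nfkbiz, -1.59 for Rhob, -1.46 for Arhgap22 and -1.85 for Cdk5r1. Among transcription and RNA regulators they were -2.24 for Arid5a, -1.46 for Irf8, -1.34 for Ciita, 2.51 for Creb3l1, 0.63 for Egr1, 1.11 for Fos and 0.77 for Fosl2. Among enzymes, transporters and secreted factors they were 4.14 for Ggta1, 2.27 for March1, 2.46 for Ptges, 2.08 for Pfkfb3, 0.42 for Eno1, 0.61 for Slc2a1, 0.95 for Fdft1, 0.81 for Lss, 0.80 for Sqle, 3.39 for Lcn2 and -1.89 for Fgl2.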

How the results depend on the processing

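The count of 804 interaction genes was 529 with limma on log2(TPM + 0.1), with 67.7% positive, and between 609 and 938 under the other settings that kept all libraries. It ranged from 291 to 1023 when libraries were left out, with 471, 291 and 463 without replicates 1, 2 and 3, where each group keeps 2 libraries. The 358 genes with an IL-10 effect without LPS became 231 with edgeR, 117 with limma on log2(TPM + 0.1), 171 on log2(TPM + 1) and 205 without its filter, and ranged from 130 to 415 with libraries left out. The share higher among genes with an effect during LPS was 48.7%, and 71.1% with total-count scaling. These 1968 genes ranged from 874 to 2146, the 5279 of the JQ1 interaction from 3471 to 5435, and the 4886 of the difference from 3020 to 4990. With the replicate block, as the pairing allows, the counts were 904 for the interaction (777 shared), 447 without LPS and 2116 during LPS; among the named genes it changed the calls given beside them. Il6 and Il12b, with groups at or under 3 counts, changed sign, Il6 to -0.65 (TPM + 0.1), -1.50 (TPM + 1, with and without filter), -0.62 (without untreated replicate 1) and -0.37 (without replicate 1), and Il12b to -1.06, -2.18, -0.29 and -1.44 in that order, and leaving out libraries took them up to 2.01 and 4.53. Of the 58 called named genes 23 held in every alternative. With all libraries 631 of 696 values kept their call, 65 missed the threshold and 0 reversed, and with libraries left out 728 of 870 kept it, 142 missed it and 0 reversed. The cause was not tested.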
